A study of Mus musculus with 6 samples.

Results

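The 43 genes described here encode the non-collagen proteins of elastic fibres, laminins, fibronectin and matricellular proteins, and the lysyl oxidases that cross-link elastin and collagen. They were taken by gene symbol from the deposited table of 21999 genes, where all 43 had a row. All 43 passed the filter on low counts that left 13609 genes for testing. The libraries came from lung microvascular endothelial cells (LMVEC) grown without treatment from mice of the SV129/B6 strain, 3 isolations from *Ptprz1+/+* mice and 3 from *Ptprz1-/-* mice. *Ptprz1* encodes a receptor tyrosine phosphatase, and the *Ptprz1-/-* mice carry the targeted allele in the whole animal rather than in one cell type. Both genotypes shared the strain, the growth medium with endothelial growth supplement and heparin, and the absence of treatment. The lungs of 2 to 5 mice aged 3 to 8 weeks went into each isolation, so that a library is not a single animal. Once confluent, the cells were collected on magnetic beads that carried an antibody to CD31, the product of *Pecam1*. The comparison asks how the loss of *Ptprz1* changes the transcripts of these cells.

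Elastic fibres have a core of cross-linked elastin on a scaffold of fibrillin microfibrils, and fibulins, latent TGF-beta binding proteins and emilins sit on or between these parts. Laminins are trimers of an alpha, a beta and a gamma chain that form the sheet of the basement membrane, where nidogens join them to type IV collagen. Matricellular proteins, such as thrombospondins, tenascins, periostin and SPARC, are secreted into the matrix and alter how cells attach and respond to growth factors without being its main structural parts. In the lung, elastic fibres give the tissue its recoil, fibroblasts and smooth muscle cells make much of them, and endothelial cells make the laminins with the alpha 4 and alpha 5 chains.

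Each library held from 14496881 to 17709663 counted reads on genes. Values are listed in the order of replicates 1, 2 and 3 of a genotype, and +/+ and -/- stand for the labels. The counts of *Ptprz1* itself were 197, 1837 and 508 under the label *Ptprz1+/+* and 1138, 1320 and 895 under *Ptprz1-/-*. They do not separate the genotypes, and every direction below therefore rests on the labels. Values per library are CPM, the usual depth-scaled counts, here on the library size after TMM scaling. The endothelial markers stood apart in the libraries numbered 3. *Pecam1* was at 3.81, 4.40 and 91.0 CPM in *Ptprz1+/+* and at 1.36, 1.51 and 32.4 CPM in the *Ptprz1-/-* labelled libraries. For *Cdh5*, the gene of VE-cadherin, the values were 8.70, 14.3 and 199 CPM and 3.60, 7.41 and 61.3 CPM. *Col1a1*, a type I collagen chain, was at 5502 ± 619 CPM in *Ptprz1+/+* and 3888 ± 1444 CPM in the *Ptprz1-/-* labelled libraries (SD, n = 3 each). The summed CPM of 10 fibroblast markers ran from 18559 to 26897 in *Ptprz1+/+* and from 11832 to 28421 in the *Ptprz1-/-* labelled ones, while the sum of 12 endothelial markers ran from 95.8 to 695 and from 86.5 to 270.1. Within the endothelial sum, *Eng* alone gave 101, 59.4 and 142 CPM in *Ptprz1+/+* and 59.6, 115 and 90.5 CPM in the *Ptprz1-/-* labelled libraries. None of the markers of either list was at 0 in all libraries. These levels go against the label of the cells as mainly endothelial, most of all in the 4 libraries not numbered 3, and the cells are called LMVEC here only by their label.

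In the quasi-likelihood test of edgeR, none of the 43 genes reached an adjusted p under 0.05 (Benjamini-Hochberg over all genes tested), and neither did any other gene (0%). DESeq2 called 0 members as well, and 0.22% of all genes. All 43 had an adjusted p of 1.00. An unadjusted p under 0.05 was found for 3 members (6.98%), *Postn*, *Loxl3* and *Emilin1*, where 366 of all genes tested (2.69%) had one. All 3 had lower values in the *Ptprz1-/-* labelled libraries, as did 1.56% of all genes tested. In this edgeR fit no member had an unadjusted p under 0.05 with higher values, against 1.13% of all genes. With DESeq2 6 members had such a p, as did 3.66% of all genes. Of these members 4 were lower, while *Lama2* (unadjusted p = 0.0416 in DESeq2) and *Ltbp4* (unadjusted p = 0.0280 in DESeq2) were higher. The count of 3 became 6 without *Ptprz1+/+* replicate 1, where 4.84% of all genes had such a p, and 8 without *Ptprz1+/+* replicate 3, where 3.53% did. In 7 members (16.3%) the 3 libraries of one genotype all lay beyond the 3 of the other, compared with 7.28% of all genes tested. Of these, 5 were lower in the *Ptprz1-/-* labelled libraries (*Fbln1*, *Emilin1*, *Loxl2*, *Loxl3* and *Postn*), where 3.73% of all genes were. The other 2, *Thbs3* and *Lama2*, were higher, where 3.55% of all genes were. With 1 library left out fewer values have to be separated, and the share rose for all genes as well. The count of 7 became 12 without the *Ptprz1-/-* labelled replicate 2 (27.9%, against 13.9% of all genes). It was 11 (25.6%) without *Ptprz1+/+* replicate 3 or without *Ptprz1-/-* replicate 3, against 16% and 17.4% of all genes. Without *Ptprz1+/+* replicate 1 it was 10 (23.3%), close to the 22% of all genes. It was 9 (20.9%) without *Ptprz1+/+* replicate 2 or without *Ptprz1-/-* replicate 1, against 14.7% and 15.7% of all genes. Over the 43 members, 20 log2 fold changes were above 0 and 23 below it, where 50.9% of all genes tested were below it, with a median of -0.017, beside -0.0047 over all genes tested. Fewer cells of a type and less RNA per cell cannot be told apart in bulk libraries such as these.

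The promoters of the genes whose genotypes did not overlap are shown. That choice rests on the order of the library values, and none of these genes had an adjusted p under 0.05. They are the 250 bases before the RefSeq transcript start on GRCm38.p6, written 5′ to 3′ on the strand of the gene. For *Emilin1* and *Lama2* this window lies inside the longer gene that the table gives. Of the 43 members, 27 matched an entry, among them 5 of these 7 genes, and the other 2 are *Loxl2* and *Loxl3*. Capitals mark motifs found on either strand. The TATA box, near which many promoters begin transcription, was searched as TATAAA. The CCAAT box, bound by the factor NF-Y, was searched by the letters of its name. The GC box, bound by SP1 and its relatives, was searched as GGGCGG. The CArG box, the motif of serum response factor, was searched by its known pattern.
Postn, chr3:54360857-54361106, plus strand: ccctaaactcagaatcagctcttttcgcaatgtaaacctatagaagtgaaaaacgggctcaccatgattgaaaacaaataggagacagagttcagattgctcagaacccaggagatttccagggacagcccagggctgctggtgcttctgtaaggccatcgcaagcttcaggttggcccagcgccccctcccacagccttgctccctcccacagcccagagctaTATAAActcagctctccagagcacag
Emilin1, chr5:30913536-30913785, plus strand: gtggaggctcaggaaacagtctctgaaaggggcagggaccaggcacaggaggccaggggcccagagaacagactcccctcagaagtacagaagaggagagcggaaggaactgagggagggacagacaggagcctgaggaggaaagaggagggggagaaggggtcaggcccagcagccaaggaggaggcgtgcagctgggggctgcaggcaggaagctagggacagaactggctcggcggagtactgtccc
Fbln1, chr15:85205699-85205948, plus strand: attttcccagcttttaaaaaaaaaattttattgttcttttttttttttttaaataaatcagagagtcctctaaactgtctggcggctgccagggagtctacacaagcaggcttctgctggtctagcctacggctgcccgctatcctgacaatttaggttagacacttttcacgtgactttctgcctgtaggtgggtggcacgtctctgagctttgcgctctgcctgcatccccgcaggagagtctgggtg
Thbs3, chr3:89214930-89215179, plus strand: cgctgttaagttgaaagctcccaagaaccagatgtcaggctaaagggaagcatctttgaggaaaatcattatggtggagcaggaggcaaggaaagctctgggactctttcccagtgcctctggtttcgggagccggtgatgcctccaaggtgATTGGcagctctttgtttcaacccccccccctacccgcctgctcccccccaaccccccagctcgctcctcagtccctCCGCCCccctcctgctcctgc
Lama2, chr10:27616943-27617192, minus strand: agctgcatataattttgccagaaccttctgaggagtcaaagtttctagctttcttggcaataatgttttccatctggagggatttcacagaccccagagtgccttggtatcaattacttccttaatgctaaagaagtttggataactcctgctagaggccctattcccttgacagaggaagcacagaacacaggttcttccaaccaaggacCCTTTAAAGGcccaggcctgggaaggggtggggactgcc

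Among these 5 promoters, that of *Postn* held a TATA box that began 26 bases before the start, and that of *Thbs3* held a CCAAT box at 98 bases and a GC box at 21 bases before it, both read on the opposite strand. The promoter of *Lama2* held a CArG box 39 bases before the start. Those of *Emilin1* and *Fbln1* held none of the motifs searched, nor did any of the 5 hold an AP-1 motif (TGANTCA) or a TEAD motif (GGAATG). Of all 32851 promoters of this length, 12.4% held the TATA box, 33.8% the CCAAT box, 32.7% the GC box, 6.75% the AP-1 motif, 12.6% the TEAD motif and 1.47% the CArG box. Over the 27 member promoters, the shares were 11.1%, 18.5%, 59.3%, 7.41%, 11.1% and 3.7% in the same order. These promoters were chosen otherwise than the 32851. For each member a single promoter was kept, that with most annotated transcript starts within 50 bases, and the 32851 were not reduced so. Nor were they matched for the bases G and C, which made up 52.4% at the median of all promoters. The motifs searched do not overlap each other in the promoters printed here. A match is a run of letters and not a site of binding.

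Elastin (*Eln*, ENSMUSG00000029675, chromosome 5 of GRCm38 from 134703781 to 134747241), the core of the elastic fibre, was read at 3.56, 9.62 and 23.8 CPM in *Ptprz1+/+* and at 10.6, 20.2 and 51.0 CPM in the *Ptprz1-/-* labelled libraries. In each genotype replicate 3 was highest and replicate 1 lowest, and the genotypes overlapped. The highest library was 14.3 times the lowest. The mean was 12.3 ± 10.4 CPM in *Ptprz1+/+* and 27.3 ± 21.1 CPM in the *Ptprz1-/-* labelled ones (SD, n = 3 each), with a log2 fold change of 1.14 (standard error 0.80). With genotype as the sole term, the unadjusted p was 0.201 in edgeR's test. With the replicate number added as a term, the unadjusted p of *Eln* in edgeR's test was 0.0013 and the adjusted p was 0.538. For *Eln* the log2 fold change was 0.31 without the *Ptprz1-/-* labelled replicate 3 and 2.05 without *Ptprz1+/+* replicate 3 (unadjusted p = 0.0462 in edgeR's test), and 1.22 without both. At 7.67 CPM per kilobase, *Eln* was among the lower members by level.

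Of the 5 microfibril genes, *Fbn1* was the highest per length, with a mean of 90.1 CPM per kilobase. It encodes fibrillin-1, the backbone of the microfibril (ENSMUSG00000027204, chromosome 2 of GRCm38 from 125300594 to 125507993). *Fbn1* was at 1144, 1345 and 934 CPM in *Ptprz1+/+* and at 830.3, 1334 and 885 CPM in the *Ptprz1-/-* labelled libraries. The highest library was 1.62 times the lowest, and the genotypes overlapped (log2 fold change -0.17, standard error 0.26). The gene *Gm9913*, on the other strand, shares 2442 exon bases with *Fbn1*, or 20.1% of its exon bases, and the use of strand in the counting is not given in the sources used here. Fibrillin-2 (*Fbn2*), best known from developing tissue, ran from 10.8 to 46.9 CPM in +/+ and from 7.75 to 55.7 CPM in -/-. Of the CPM per kilobase of both fibrillins, *Fbn1* held between 93.3% and 99.3% in the 6 libraries.

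The microfibril-associated genes were lower per length than *Fbn1* and varied more between libraries. *Mfap2* ran from 7.85 to 36.8 CPM in +/+ and from 7.75 to 35.9 CPM in -/- (log2 fold change -0.45, standard error 0.78). *Mfap4*, whose product binds elastin and fibrillin, ran from 18.2 to 40.5 CPM in +/+ and from 22.0 to 70.6 CPM in -/-. Its log2 fold change of 0.87 (standard error 0.49) was above 0, with overlapping genotypes, and was 0.51 without the *Ptprz1-/-* labelled replicate 3. *Mfap5* ran from 85.9 to 138 CPM in +/+ and from 91.8 to 162 CPM in -/- (log2 fold change 0.19, standard error 0.26). None of the 5 had an unadjusted p under 0.05 in edgeR's test.

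**Figure D1:**
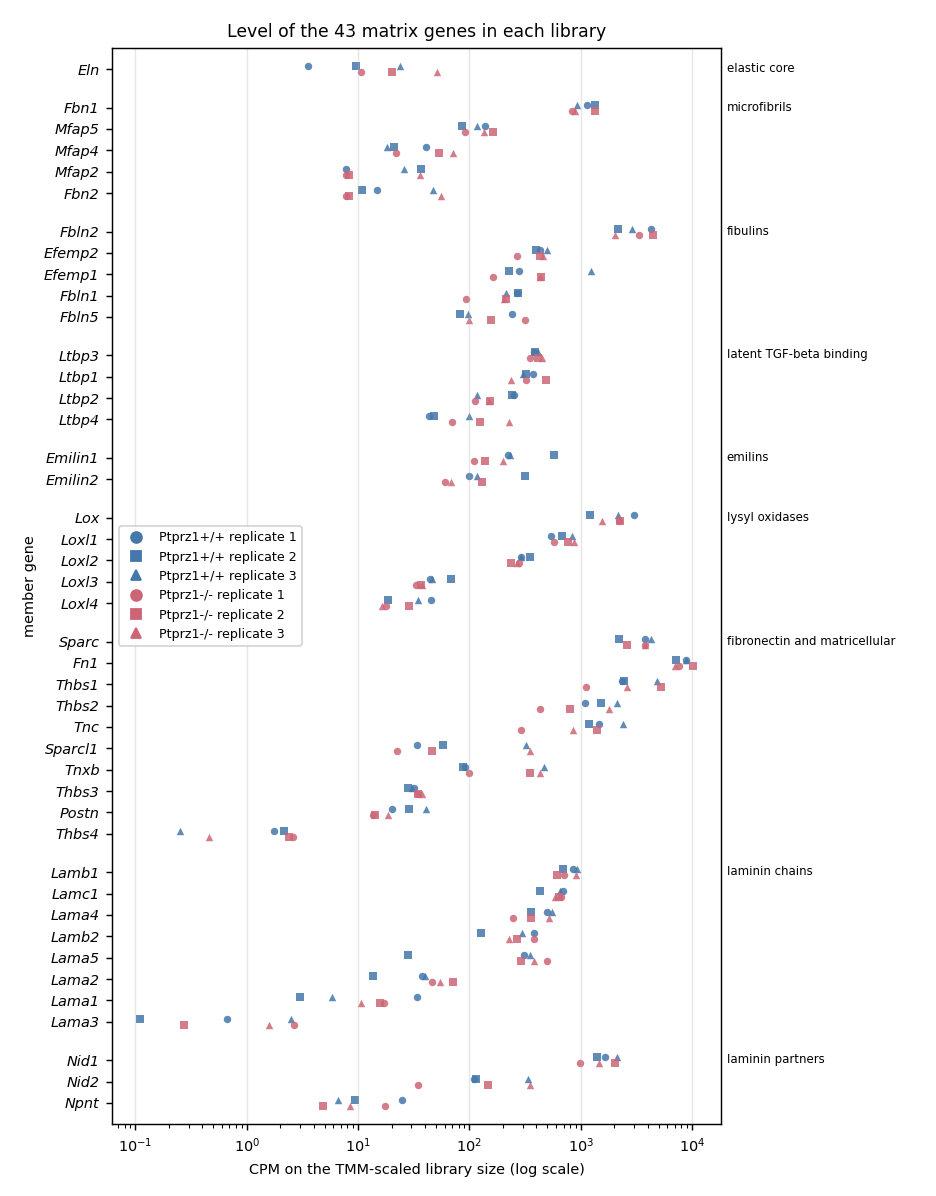
CPM on a log axis for each of the 43 genes, grouped by role, with 1 point per library (colour for genotype, shape for replicate number). *Fn1* lies farthest to the right in all 6 libraries and *Thbs4* and *Lama3* at the far left, and the points of *Ltbp3* lie close together while those of *Sparcl1* and *Lama5* spread widely.

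Among the fibulins, *Fbln2* was the highest per length (667 CPM per kilobase) and the third of all members. Fibulin-2 lies in elastic fibres and basement membranes of vessel walls. It was at 4295, 2160.2 and 2898 CPM in *Ptprz1+/+* and at 3329, 4427 and 2041 CPM in the *Ptprz1-/-* labelled libraries. Each genotype spanned nearly the same range (log2 fold change 0.067, standard error 0.40).

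*Fbln1* (ENSMUSG00000006369, chromosome 15 of GRCm38 from 85205949 to 85286535) encodes fibulin-1, which binds fibronectin, laminin and elastin-associated proteins. It was at 267, 275 and 215 CPM in *Ptprz1+/+* and at 93.2, 211 and 205 CPM in the *Ptprz1-/-* labelled libraries. All 3 *Ptprz1-/-* labelled libraries were below the lowest of the *Ptprz1+/+* libraries, replicates 2 and 3 by little and replicate 1 by far. The log2 fold change was -0.57 (standard error 0.32, unadjusted p = 0.122 in edgeR's test) and was -0.28 without the *Ptprz1-/-* labelled replicate 1. That library also held the highest summed level of 6 mesothelial markers, 1372 CPM, where the others held from 54.3 to 279 CPM, and their part in this value was not tested. The exact two-sided permutation test of 3 against 3 libraries gave p = 0.10, the smallest it can give.

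The other fibulins overlapped between genotypes. *Fbln5*, whose product tethers elastin to the cell surface, ran from 83.1 to 240.5 CPM in +/+ and from 99.4 to 313 CPM in -/- and was highest in both libraries numbered 1. *Efemp1* (fibulin-3) ran from 225 to 1231 CPM in +/+ and from 163 to 439 CPM in -/-, with its top value in *Ptprz1+/+* replicate 3. Without that library its log2 fold change moved from -0.75 to 0.45. *Efemp2* (fibulin-4), which brings lysyl oxidase to elastin, ran from 399.9 to 493 CPM in +/+ and from 267 to 459.6 CPM in -/- (log2 fold change -0.20, standard error 0.24).

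The latent TGF-beta binding proteins hold latent TGF-beta on the microfibril, except LTBP2, which does not bind it. *Ltbp3* was the highest of the 4 per length, with 76.7 CPM per kilobase. It was at 378, 387 and 415 CPM in *Ptprz1+/+* and at 348, 412 and 449.6 CPM in the *Ptprz1-/-* labelled libraries. With a ratio of 1.29 between the highest and lowest library, it was the steadiest of the 43 genes. Its genotypes overlapped (log2 fold change 0.035, standard error 0.16).

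*Ltbp4*, needed for elastic fibre assembly in the lung, ran from 43.4 to 98.6 CPM in +/+ and from 69.1 to 225 CPM in -/-. Its log2 fold change was 1.14 with a standard error of 0.51, and its genotypes overlapped (unadjusted p = 0.0617 in edgeR's test). The log2 fold change was 0.60 without the *Ptprz1-/-* labelled replicate 3 and 1.61 without *Ptprz1+/+* replicate 3. In both genotypes replicate 3 was the highest of the 3. *Ltbp1* ran from 302 to 375 CPM in +/+ and from 238 to 491 CPM in -/- (log2 fold change 0.069, standard error 0.28). *Ltbp2* ran from 118 to 252 CPM in +/+ and from 112.1 to 153 CPM in -/- (log2 fold change -0.56, standard error 0.31), and shares 764 exon bases with the antisense gene *D030025P21Rik*.

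*Emilin1* (ENSMUSG00000029163, chromosome 5 of GRCm38 from 30913402 to 30921278) encodes a glycoprotein found where elastin meets the microfibril, which also restrains the processing of TGF-beta. It was at 221, 569 and 233 CPM in *Ptprz1+/+* and at 110.0, 137 and 200.3 CPM in the *Ptprz1-/-* labelled libraries. *Ptprz1+/+* replicate 2 stood far above the other 5 libraries, and the gap between the nearest libraries of the genotypes was small. The mean was 341 ± 198 against 149 ± 46.4 CPM (SD, n = 3 each). The log2 fold change of -1.19 (standard error 0.44) had an unadjusted p of 0.0313 in edgeR's test. Without *Ptprz1+/+* replicate 2 it was -0.61, with an unadjusted p of 0.070 in edgeR. That library also held 641 CPM summed over 5 markers of dividing cells, where the others held from 46.7 to 141 CPM, and their part in the difference was not tested.

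*Emilin2* had the same high library. It ran from 100.2 to 318 CPM in +/+ and from 60.8 to 129 CPM in -/-, with *Ptprz1+/+* replicate 2 at the top, and its genotypes overlapped (log2 fold change -1.05, standard error 0.52, unadjusted p = 0.0883 in edgeR's test). Without that library the log2 fold change of *Emilin2* was -0.33. The emilins together took from 0.0315% to 0.0912% of all gene counts in *Ptprz1+/+* and from 0.0176% to 0.0280% in the *Ptprz1-/-* labelled libraries. The 2 ranges did not overlap (exact two-sided permutation test, p = 0.10, the smallest possible, and 1.00 after adjustment over the 15 shares compared).

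**Figure D2:**
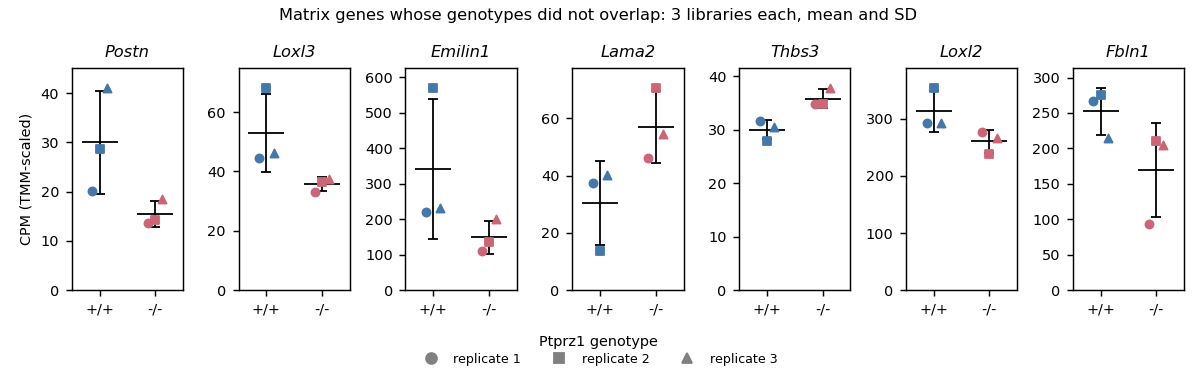
CPM of the 7 genes whose genotypes did not overlap, each on its own linear axis from 0, with 1 point per library (shape for replicate number), a line at the mean of 3 and a bar of 1 SD. *Postn*, *Loxl3*, *Emilin1*, *Loxl2* and *Fbln1* are lower and *Lama2* and *Thbs3* higher in the *Ptprz1-/-* labelled libraries. *Ptprz1+/+* replicate 2 is far from its group in *Emilin1* and *Lama2*, and also lies above it in *Loxl3* and *Loxl2*.

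Lysyl oxidases oxidise lysines of elastin and collagen so that the chains can cross-link. *Lox*, the founding member, was the highest of the 5 per length (461 CPM per kilobase). It was at 2990.0, 1216 and 2159 CPM in *Ptprz1+/+* and at 2192, 2241 and 1557 CPM in the *Ptprz1-/-* labelled libraries. The *Ptprz1+/+* libraries lay on both sides of the others (log2 fold change -0.088, standard error 0.37). *Loxl1*, which acts on elastin, ran from 538 to 833 CPM in +/+ and from 580.3 to 872 CPM in -/- (log2 fold change 0.12, standard error 0.24).

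*Loxl3* (ENSMUSG00000000693, chromosome 6 of GRCm38 from 83034173 to 83052562) was lower in the *Ptprz1-/-* labelled libraries. It was at 44.4, 68.1 and 46.2 CPM in *Ptprz1+/+* and at 33.1, 36.4 and 37.5 CPM in the others, so that the 3 libraries labelled *Ptprz1-/-* lay within a narrow band below the rest. The mean was 52.9 ± 13.2 against 35.7 ± 2.29 CPM (SD, n = 3 each). The log2 fold change was -0.57 (standard error 0.19), with an unadjusted p of 0.0233 in edgeR's test. Without *Ptprz1+/+* replicate 2 it was -0.35. *Htra2*, on the other strand, shares 535 exon bases with *Loxl3* (11.6% of its exon bases), and without strand in the counting the reads of this stretch cannot be told apart.

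*Loxl2* (ENSMUSG00000034205, chromosome 14 of GRCm38 from 69609068 to 69695834), whose product acts on type IV collagen, was at 292, 353 and 291 CPM in *Ptprz1+/+* and at 277, 238 and 266 CPM in the *Ptprz1-/-* labelled libraries. The genotypes did not overlap, with 312 ± 35.4 against 260.2 ± 20.3 CPM (SD, n = 3 each). The log2 fold change was -0.26 (standard error 0.15, unadjusted p = 0.122 in edgeR's test) and was -0.17 without *Ptprz1+/+* replicate 2, the highest library. A transcript of *Gm21451* matches *Loxl2* over 2348 bases with 100% identity, and reads of this stretch cannot be assigned to one gene. *Loxl4* ran from 18.5 to 45.3 CPM in +/+ and from 16.5 to 28.6 CPM in -/- (log2 fold change -0.64, standard error 0.37), with overlapping genotypes. Of the 5 lysyl oxidases, 4 had a log2 fold change below 0 and 1 above it, with a median of -0.26.

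**Figure D3:**
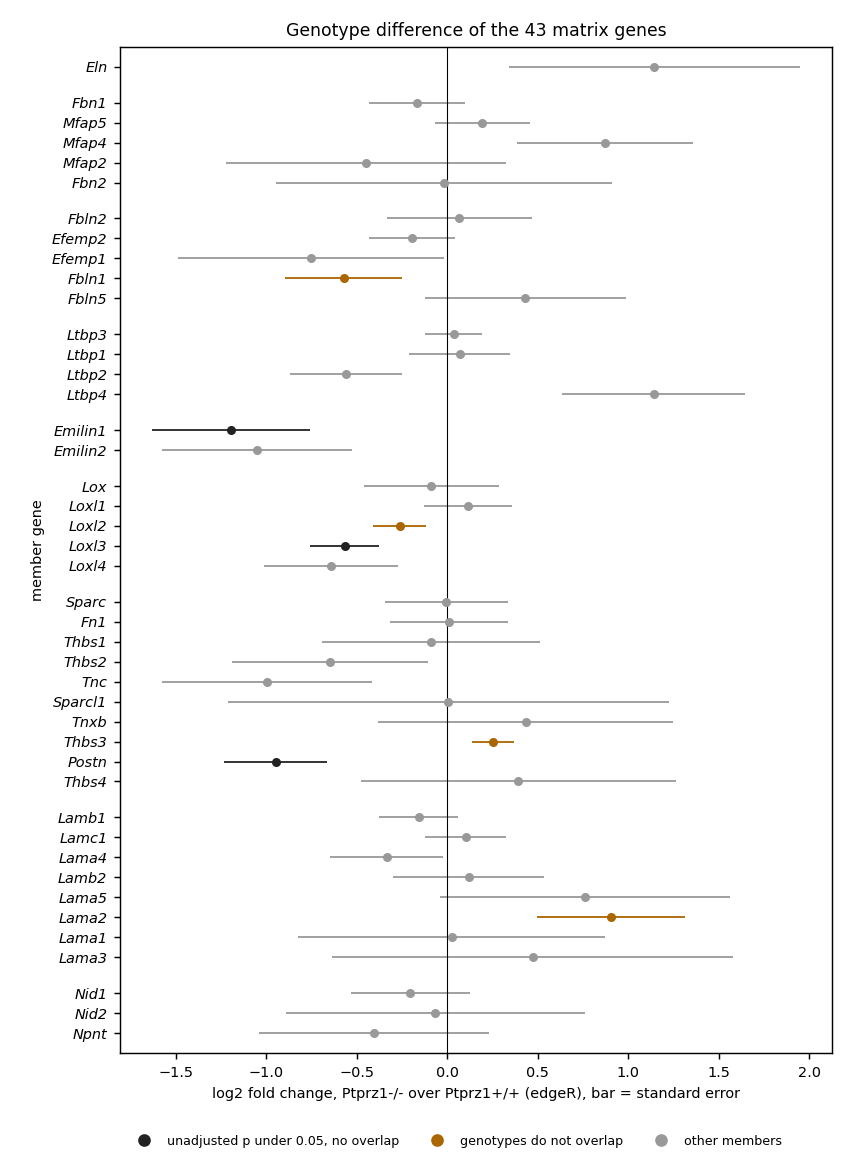
Log2 fold change of each gene, libraries labelled *Ptprz1-/-* over *Ptprz1+/+*, from edgeR's quasi-likelihood fit with a bar of 1 standard error, ordered by role. *Postn*, *Loxl3* and *Emilin1* are in black, the other genes without overlap (*Fbln1*, *Loxl2*, *Thbs3* and *Lama2*) in brown, and the bars of *Sparcl1* and *Lama3* are the widest.

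Fibronectin and the matricellular genes held the largest part of the counts of the set, from 1.39% to 2.24% of all gene counts. *Sparc*, which encodes a secreted protein that binds collagen, had the highest mean level per length of all 43 genes (1476 CPM per kilobase), although *Fn1* was higher in the *Ptprz1-/-* labelled replicate 2 (1227 against 1137 CPM per kilobase). It was at 3760.0, 2216 and 4233 CPM in *Ptprz1+/+* and at 3804, 2615 and 3747 CPM in the *Ptprz1-/-* labelled libraries. Replicate 2 was the lowest in both genotypes, and the means were close (log2 fold change -0.0061, standard error 0.34). Fibronectin (*Fn1*), which cells bind through integrins, was second per length (994 CPM per kilobase). It ran from 7180.0 to 8798 CPM in +/+ and from 7067 to 10203 CPM in -/- and took from 0.738% to 0.964% of all gene counts by itself (log2 fold change 0.0081, standard error 0.33).

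*Sparcl1*, a relative of *Sparc* that is also expressed in vessels, behaved otherwise. It was at 34.1, 57.7 and 323 CPM in *Ptprz1+/+* and at 22.3, 46.1 and 348 CPM in the *Ptprz1-/-* labelled libraries. Replicate 3 was the highest in both genotypes, and the highest library was 15.6 times the lowest. Its log2 fold change of 0.0055 had a standard error of 1.22.

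Periostin (*Postn*, ENSMUSG00000027750, chromosome 3 of GRCm38 from 54361109 to 54391034), a matricellular protein of fibroblasts that binds integrins and fibronectin, had the lowest unadjusted p of the set. It was at 20.2, 28.7 and 41.0 CPM in *Ptprz1+/+* and at 13.7, 14.3 and 18.6 CPM in the *Ptprz1-/-* labelled libraries. The 3 *Ptprz1-/-* labelled libraries were all below the lowest *Ptprz1+/+* library, replicate 1, and in both genotypes replicate 3 was the highest. The mean was 30.0 ± 10.5 against 15.5 ± 2.65 CPM (SD, n = 3 each), and the log2 fold change -0.95 (standard error 0.28). The unadjusted p was 0.0141 in edgeR's test, 80th of the 13609 genes, and the adjusted p was 1.00. The unadjusted p stayed under 0.05 in 12 of the 12 alternatives, and the log2 fold change was -0.66 without *Ptprz1+/+* replicate 3. Per length *Postn* was at 5.22 CPM per kilobase, the 37th of the 43 genes.

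The thrombospondins bind calcium, integrins and, in the case of thrombospondin-1, latent TGF-beta. *Thbs3* (ENSMUSG00000028047, chromosome 3 of GRCm38 from 89215180 to 89226837) was at 31.6, 28.0 and 30.5 CPM in *Ptprz1+/+* and at 34.7, 34.9 and 37.8 CPM in the *Ptprz1-/-* labelled libraries. The genotypes did not overlap, and each kept to a narrow band. The mean was 30.0 ± 1.86 against 35.8 ± 1.72 CPM (SD, n = 3 each), with a log2 fold change of 0.25 (standard error 0.12, unadjusted p = 0.0692 in edgeR's test). *Mtx1*, on the other strand, shares 318 exon bases with *Thbs3* (6.59% of its exon bases).

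*Thbs1* ran from 2342 to 4822 CPM in +/+ and from 1118 to 5294 CPM in -/-, with both extremes in the *Ptprz1-/-* labelled libraries (log2 fold change -0.091, standard error 0.60). *Thbs2* ran from 1103 to 2106 CPM in +/+ and from 434 to 1786 CPM in -/- (log2 fold change -0.65, standard error 0.54), and was highest in both libraries numbered 3. Its log2 fold change was -0.28 without the *Ptprz1-/-* labelled replicate 1 and -1.36 without the *Ptprz1-/-* labelled replicate 3 (unadjusted p = 0.0216 in edgeR's test). *Thbs4* was near the limit of detection, from 0.252 to 2.61 CPM and from 4 to 42 counts per library. Tenascin-C (*Tnc*), an anti-adhesive matrix protein of remodelling tissue, ran from 1178 to 2415 CPM in +/+ and from 291 to 1391 CPM in -/-. Its log2 fold change of -0.998 had a standard error of 0.58, and its genotypes overlapped. It was -0.59 without the *Ptprz1-/-* labelled replicate 1 and -1.57 without replicate 2 of that genotype. Tenascin-X (*Tnxb*) ran from 87.8 to 472 CPM in +/+ and from 98.8 to 429.9 CPM in -/- (log2 fold change 0.43, standard error 0.82), and its transcripts align to *Tnxa* over 2771 bases with 81.9% identity. Its log2 fold change was 0.039 without the *Ptprz1-/-* labelled replicate 3 and 1.71 without *Ptprz1+/+* replicate 3 (unadjusted p = 0.0370 in edgeR's test).

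Laminins differ by their chains. The alpha chain sets which receptors a laminin binds, and of the alpha chains *Lama4* was the highest per length (70.0 CPM per kilobase), followed by *Lama5* (27.2). *Lama4* ran from 361 to 554 CPM in +/+ and from 246 to 519 CPM in -/- (log2 fold change -0.34, standard error 0.31). *Lama5* was at 312, 28.0 and 351 CPM in *Ptprz1+/+* and at 498, 290.1 and 381 CPM in the *Ptprz1-/-* labelled libraries. *Ptprz1+/+* replicate 2 was far below the other 5, which overlapped, and the highest library was 17.8 times the lowest. The log2 fold change of *Lama5* was 0.76 with a standard error of 0.80, and 0.23 without *Ptprz1+/+* replicate 2.

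*Lama2* (ENSMUSG00000019899, chromosome 10 of GRCm38 from 26980036 to 27619758), the alpha chain of muscle and nerve basement membranes, was at 37.5, 13.7 and 40.1 CPM in *Ptprz1+/+* and at 46.0, 70.6 and 54.4 CPM in the *Ptprz1-/-* labelled libraries. The genotypes did not overlap, *Ptprz1+/+* replicate 2 was the lowest of all, and the gap between the nearest libraries was small. The mean was 30.4 ± 14.6 against 57.0 ± 12.5 CPM (SD, n = 3 each), with a log2 fold change of 0.90 (standard error 0.41, unadjusted p = 0.0654 in edgeR's test). Without *Ptprz1+/+* replicate 2 it was 0.55. The antisense gene *Gm48084* shares 631 exon bases with it.

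*Lama1*, the alpha chain of the early embryo, was at 33.9, 3.02 and 5.80 CPM in *Ptprz1+/+* and at 17.1, 15.8 and 10.6 CPM in the *Ptprz1-/-* labelled libraries. Replicate 1 was the highest in both genotypes, the lowest was *Ptprz1+/+* replicate 2, and the ratio between highest and lowest was 11.2. *Lama3*, the alpha chain of epithelial basement membranes, was the lowest member per length, from 0.110 to 2.67 CPM and from 2 to 43 counts per library.

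As shares of the CPM per kilobase of the 5 alpha chains, *Lama4* held 70.4%, 93.4% and 71.9% in *Ptprz1+/+* and 44.6%, 63.3% and 68.0% in the *Ptprz1-/-* labelled libraries. *Lama5* held 23.2%, 3.85% and 24.1%, and 48.0%, 27.1% and 26.5%, in the same order. *Lama2* held 3.31%, 2.23% and 3.27%, and 5.25%, 7.82% and 4.48%. Thus the *Lama4* share was lower and the *Lama5* and *Lama2* shares were higher in the 3 libraries labelled *Ptprz1-/-* than in any *Ptprz1+/+* library, by a small margin for *Lama4* and *Lama5*. The mean share of *Lama4* was 78.6% ± 12.9 against 58.6% ± 12.4, that of *Lama5* 17.1% ± 11.5 against 33.9% ± 12.2 and that of *Lama2* 2.94% ± 0.615 against 5.85% ± 1.75 (SD, n = 3 each). Each exact two-sided permutation test gave p = 0.10, the smallest possible with 3 against 3, and 1.00 after Benjamini-Hochberg adjustment over the 33 such shares compared. The shares of one family sum to 100% and are not independent of each other.

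**Figure D4:**
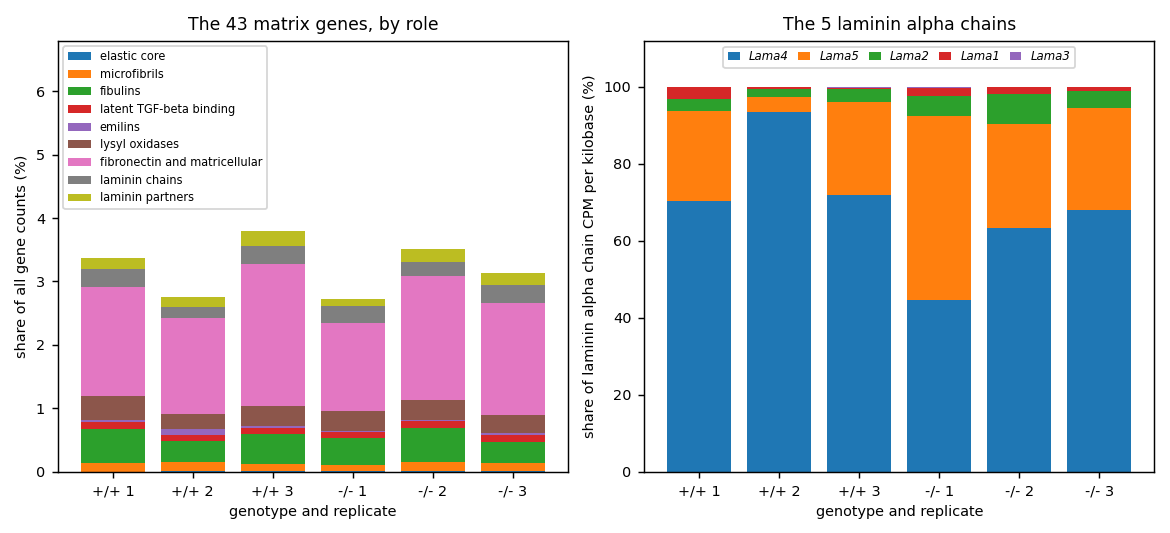
Left, percent of all gene counts in each library taken by the 43 genes, stacked by role. Right, percent of the CPM per kilobase of the 5 laminin alpha chains held by each. Both axes are linear from 0 and each bar is 1 library: the left bars reach from 2.72% to 3.79%, and *Lama4* holds the largest part of the right bars except in the *Ptprz1-/-* labelled replicate 1.

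The beta and gamma chains overlapped between genotypes. *Lamb1* was the highest laminin chain per length (136 CPM per kilobase). It was at 860.4, 698 and 929 CPM in *Ptprz1+/+* and at 714, 614 and 901 CPM in the *Ptprz1-/-* labelled libraries. Replicate 2 was the lowest and replicate 3 the highest in both genotypes (log2 fold change -0.16, standard error 0.22). *Lamb2*, the beta chain of vessel and synaptic laminins, ran from 127 to 380.0 CPM in +/+ and from 226 to 383 CPM in -/- (log2 fold change 0.12, standard error 0.42). *Lamc1*, the gamma chain shared by most laminins, ran from 427 to 691 CPM in +/+ and from 592 to 669 CPM in -/- (log2 fold change 0.10, standard error 0.22).

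The nidogens bridge laminin and type IV collagen. *Nid1* was at 1636, 1385 and 2122 CPM in *Ptprz1+/+* and at 988, 2031 and 1445 CPM in the *Ptprz1-/-* labelled libraries, with overlapping genotypes (log2 fold change -0.20, standard error 0.33). *Nid2* was at 110.1, 115 and 334 CPM in *Ptprz1+/+* and at 34.6, 148 and 352 CPM in the others. Replicate 3 was the highest in both genotypes, and the ratio of 10.2 between the highest and lowest library was far above the 2.15 of *Nid1*. *Rtraf*, on the other strand, shares 437 exon bases with *Nid2*. Nephronectin (*Npnt*), a ligand of integrin alpha 8 in basement membranes, ran from 6.62 to 24.8 CPM in +/+ and from 4.87 to 17.4 CPM in -/- (log2 fold change -0.40, standard error 0.64).

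The 43 genes together took 3.37%, 2.75% and 3.79% of all gene counts in *Ptprz1+/+* and 2.72%, 3.51% and 3.13% in the *Ptprz1-/-* labelled libraries. The mean was 3.31% ± 0.524 against 3.12% ± 0.398 (SD, n = 3 each), a difference of -0.187 percentage points. An exact two-sided permutation test gave p = 0.70. The difference was 0.057 percentage points without *Ptprz1+/+* replicate 3 and 0.014 without the *Ptprz1-/-* labelled replicate 1. By level per length, the order began with *Sparc*, *Fn1*, *Fbln2*, *Thbs1* and *Lox*, at 1476, 994, 667, 532 and 461 CPM per kilobase. Each of these 5 spanned more CPM per kilobase between its libraries than the step from its mean to the next. The order ended with *Npnt*, *Fbn2*, *Lama1*, *Thbs4* and *Lama3*, between 2.59 and 0.124 CPM per kilobase.

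In 11 of the 43 genes (25.6%) both libraries numbered 3 lay above the other 4, against 10% of all genes tested. They were *Eln*, *Fbn2*, *Efemp2*, *Ltbp3*, *Loxl1*, *Tnxb*, *Thbs2*, *Sparcl1*, *Lama4*, *Lamb1* and *Nid2*. On log2(CPM + 0.5), replicate 3 of *Sparcl1* exceeded the mean of replicates 1 and 2 by 2.85 in *Ptprz1+/+* and by 3.42 in the *Ptprz1-/-* labelled libraries. The same differences were 1.85 and 2.73 for *Fbn2* and 1.92 and 1.76 for *Eln*. Of the 12 endothelial markers, 9 also had both libraries numbered 3 above the others, and their sum was 695 CPM in *Ptprz1+/+* replicate 3 and 270.1 CPM in the *Ptprz1-/-* labelled replicate 3, against 86.5 to 132 CPM in the other 4. Of the 10 fibroblast markers, 4 showed this order too. The 10 summed to 26897 CPM in *Ptprz1+/+* replicate 3 and 28421 CPM in the *Ptprz1-/-* labelled replicate 3, against 11832 to 18996 CPM in the other 4. The part of either list of markers in the levels of the 11 genes was not tested. The labels give the number 3 no meaning beyond that of a replicate.

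**Figure D5:**
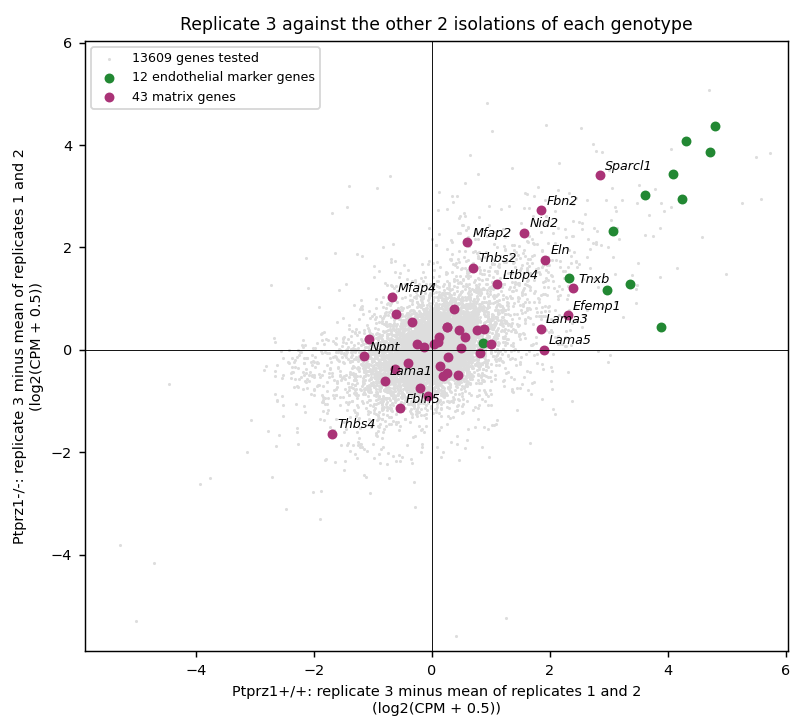
Difference between replicate 3 and the mean of replicates 1 and 2, on log2(CPM + 0.5), in *Ptprz1+/+* (horizontal) and in the *Ptprz1-/-* labelled libraries (vertical), for 13609 genes (grey), the 43 matrix genes (purple) and 12 endothelial markers (green). *Sparcl1*, *Fbn2*, *Nid2* and *Eln* lie at the upper right, to the left of most endothelial markers, and *Thbs4* lies at the lower left.

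Both libraries numbered 1 lay above the other 4 in 5 members (11.6%), a share close to the 12.1% of all genes tested. They were *Fbln5*, *Lama1*, *Lamb2*, *Lamc1* and *Npnt*. Of 8 smooth muscle and pericyte markers, 5 showed the same order. The 8 summed to 3735 and 4077 CPM in the libraries numbered 1 against 402 to 1289 CPM in the other 4. Of 5 tested mesothelial markers, 3 showed this order too. Both libraries numbered 2 lay above the other 4 in 2 members (4.65%), *Fbn1* and *Emilin2*, against 5.94% of all genes tested. The part of the smooth muscle or mesothelial markers in these values was not tested. The 6 epithelial markers summed to between 0.442 and 1.57 CPM in every library, and the 4 leukocyte markers to between 10.4 and 49.8 CPM.

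Other genes of the same pathways were read from 5 lists with 62 genes in the table, of which 50 were tested. None reached an adjusted p under 0.05 with edgeR or DESeq2, and 4 (8%) had an unadjusted p under 0.05, against 2.69% of all genes tested. Without overlap between genotypes, 2 of the 50 were higher and 1 was lower in the *Ptprz1-/-* labelled libraries. Of all genes tested, 3.55% were higher and 3.73% lower in this way. Of 12 tested genes for the assembly of elastic fibres, 9 had a log2 fold change above 0 and 3 below it, with a median of 0.27. *Papln*, a matrix protein of the basement membrane related to the ADAMTS proteases, was counted 5, 4 and 7 times in *Ptprz1+/+* and 33, 10 and 13 times in the *Ptprz1-/-* labelled libraries. The genotypes did not overlap, at a level that rests on few reads (log2 fold change 1.89, standard error 0.58, unadjusted p = 0.0161 in edgeR's test).

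Among 15 tested matricellular genes outside the set, 7 log2 fold changes were above 0 and 8 below it, with a median of -0.21. *Ctgf*, a CCN protein known as a target of YAP and TGF-beta, was at 195, 48.5 and 155 CPM in *Ptprz1+/+* and at 319, 412 and 198 CPM in the *Ptprz1-/-* labelled libraries. The genotypes did not overlap, by a small margin between replicate 1 of *Ptprz1+/+* and replicate 3 of the others (log2 fold change 1.22, standard error 0.53, unadjusted p = 0.0567 in edgeR's test). *Fstl1*, a secreted SPARC relative, was at 993, 1931 and 1135 and 911, 888 and 871 CPM in the same order, again without overlap (log2 fold change -0.60, standard error 0.29, unadjusted p = 0.0776 in the same edgeR test). Osteopontin (*Spp1*), an integrin ligand, was at 1113, 6650.2 and 384 and 401, 547 and 376 CPM, with *Ptprz1+/+* replicate 2 far above all others and the genotypes overlapping (log2 fold change -2.62, standard error 1.003, unadjusted p = 0.0374 in edgeR's test).

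Of 16 tested receptors of these proteins, 8 had a log2 fold change above 0 and 8 below it, with a median of 0.0060. *Itga7*, a laminin receptor chain of muscle, was at 19.8, 14.8 and 21.6 CPM in *Ptprz1+/+* and at 90.8, 19.4 and 54.2 CPM in the *Ptprz1-/-* labelled libraries (log2 fold change 1.55, standard error 0.52, unadjusted p = 0.0231 in edgeR's test). *Itgb3*, a chain of receptors for fibronectin, periostin and osteopontin, was at 15.3, 83.8 and 33.6 and 11.2, 17.5 and 17.5 CPM in the same order (log2 fold change -1.52, standard error 0.60, unadjusted p = 0.0406 in the same edgeR test). Both overlapped between genotypes. The 5 tested laminin chains and basement membrane genes outside the set had a median of 0.26, with 3 above 0 and 2 below it, and the 2 tested emilin and multimerin genes a median of -1.46, both below 0.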

How the data were processed

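Total RNA of 6 LMVEC libraries was sequenced. The authors deposited 1 table with read counts for every gene in each library, not normalized, and FPKM values, which equal those computed from the counts, the gene length and the summed counts. The columns deposited by the authors with a mean signal per genotype, a log2 fold change and a p-value hold their own comparison, and neither these nor 3 lists of called genes were used. The submitters' processing notes name STAR, TopHat, HTSeq, DESeq2, edgeR, GRCm38 and mm10, with no role or version.

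Gene counts were tested with edgeR 4.0.16 in R 4.3.3 (filterByExpr, TMM, glmQLFit, glmQLFTest) on all genes with genotype as sole term, a Benjamini-Hochberg adjustment and 0.05 as threshold. CPM was taken on the TMM-scaled library size, and CPM per kilobase divides it by the gene length of the table. The members and lists were chosen with earlier results of these data known. Values in every library are given for members with an unadjusted p under 0.05, without overlap between genotypes, highest per length in their role, or with a highest library at least 10 times the lowest (both at 0.5 CPM or more), and other members are given by range. Genes of the further lists are named where the unadjusted p was under 0.05 or the genotypes did not overlap. The 12 alternatives were DESeq2 1.42.0, upper-quartile factors, no filter, at least 10 counts in every library, the replicate number as a block, each of the 6 libraries left out, and both libraries numbered 3 left out. Shares of counts were compared over 3 against 3 libraries with an exact two-sided permutation test. Transcripts of GENCODE M21 were aligned with minimap2 2.31, keeping at least 100 bases. Whether isolations of one genotype shared animals is not given in the labels. The p-values of edgeR and DESeq2 weigh a genotype difference against the spread between isolations, not between single animals. The functions were tested on simulated counts, where recovery of changed genes was required only at a small set spread and not at the spread fitted to these libraries.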

Additional observations from a re-analysis of the deposited data

How the results depend on the processing

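With 3 libraries per genotype and a wide spread between isolations, a difference had to be large to be detectable, and low genes such as Thbs4, Lama3 and Papln rest on few reads. No member reached an adjusted p under 0.05 with edgeR or in any of the 12 alternatives, with 3 to 8 members at an unadjusted p under 0.05 across the fits that left out 1 library. For all genes, DESeq2 called 30 (edgeR 0, with 366 at an unadjusted p under 0.05), none of them a member. Members with an unadjusted p under 0.05 were 3 in edgeR, 6 with DESeq2 (background 3.66%), 5 with no filter on low counts (2.51%), 7 with the replicate block (5.07%) and 5 without both libraries numbered 3 (1.88%). Members without overlap were 7 (16.3%, against 7.28% of all genes tested), ran from 9 to 12 with 1 library left out (20.9% to 27.9%, against 13.9% to 22% of all genes), and were 15 without both libraries numbered 3 (34.9% against 26.5%). The replicate numbers matched across genotypes only in part. The deviations of same-numbered libraries from their group means correlated at 0.46, -0.060 and 0.53 for numbers 1, 2 and 3. For numbers 1 and 3 this was the highest correlation of either library with the other genotype. Ptprz1+/+ replicate 2 correlated best with Ptprz1-/- replicate 3, at 0.033. The labels do not say whether same-numbered isolations were paired. With the replicate number as a block, 690 genes had an unadjusted p under 0.05, and 0 an adjusted one. In that fit the unadjusted p in edgeR was 0.0013 for Eln, 0.0026 for Ltbp4 and 0.0035 for Emilin2. The median over members ran from -0.24 to 0.017, and the difference in share of counts from -0.463 to 0.0573 percentage points with 1 library left out and was 0.0533 without both libraries numbered 3. At least 10 counts in every library left 41 members, without Thbs4 and Lama3.

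The sign of the log2 fold change turned without both libraries numbered 3 for Efemp1 (0.26), Ltbp3 (-0.011), Lox (0.075), Thbs1 (0.42), Sparc (0.10), Sparcl1 (-0.42) and Lama1 (-0.17), with the replicate block for Fn1 (-0.0055), Sparc (0.026) and Sparcl1 (-0.27), with upper-quartile normalization for Fn1 (-0.0028) and with no filter for Sparc (0.00034). With 1 library left out in turn, these members ranged across 0: Fbn2 from -1.60 to 0.90, Mfap2 from -1.56 to 0.022, Fbln2 from -0.22 to 0.37, Fbln5 from -0.14 to 1.08, Efemp1 from -1.14 to 0.45, Efemp2 from -0.34 to 0.014, Ltbp1 from -0.26 to 0.28, Ltbp3 from -0.052 to 0.13, Lox from -0.37 to 0.25, Loxl1 from -0.026 to 0.28, Fn1 from -0.17 to 0.11, Thbs1 from -0.78 to 0.33, Thbs4 from -0.095 to 0.86, Sparc from -0.24 to 0.18, Sparcl1 from -2.03 to 1.597, Lama1 from -0.45 to 1.72, Lama3 from -0.23 to 1.96, Lamb2 from -0.22 to 0.46, Lamc1 from -0.088 to 0.23, Nid1 from -0.50 to 0.021, Nid2 from -1.04 to 0.66, Npnt from -1.01 to 0.36. The causes were not tested. Members that kept their sign but moved by over 1.5 times included Fbn1 from -0.41 to -0.032, Mfap5 from 0.0038 to 0.39, Fbln1 from -0.76 to -0.28, Loxl2 from -0.31 to -0.17, Loxl3 from -0.67 to -0.35, Loxl4 from -0.93 to -0.33, Lama4 from -0.65 to -0.10, Lamb1 from -0.32 to -0.039. The sign of the other members held with each library left out. Postn had an unadjusted p under 0.05 in 12 of 12 alternatives, and Emilin1 and Loxl3 in 9 each. Emilin2, also lower, had one in 4. Of members with a log2 fold change above 0, Ltbp4 had one in 6 and Lama2 in 4.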

Other observations

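Within the other families the main member was the same in every library. Of the CPM per kilobase of the thrombospondins, *Thbs1* held between 59.1% and 86.3%, and *Thbs2* between 12.8% and 39.7%. *Fbln2* held between 38.8% and 69.3% of that of the fibulins, where *Efemp1* reached 38.7% in *Ptprz1+/+* replicate 3 against 7.95% in the library labelled *Ptprz1-/-* replicate 1. *Nid1* held between 76.9% and 95.8% of that of the nidogens, *Lamb1* between 64.4% and 84.3% of that of the 2 beta chains, and *Lox* between 48.3% and 73.7% of that of the lysyl oxidases. Among the latent TGF-beta binding proteins *Ltbp3* held between 40.0% and 49.7%, while *Ltbp4* ran from 4.63% to 22.4%, with its highest value in the library labelled *Ptprz1-/-* replicate 3. None of these shares separated the genotypes.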
